A study of Mus musculus with 9 samples.

Results

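The 8 genes described here are the p53 family (Trp53, Trp63 and Trp73), the p53 antagonists Mdm2 and Mdm4, the DNA damage kinases Atm and Chek2, and the ubiquitin ligase subunit Fbxw7. They were taken by name, with no measured value in the choice, from 21887 protein-coding genes of the RefSeq mouse annotation, GRCm38.p6. The chromatin came from MYCN-driven T cell lymphoma cells of the thymus of C57BL/6J mice, which all groups share, and each antibody had 1 library. The 7 antibodies were directed against EZH2 and SUZ12 (subunits of Polycomb repressive complex 2), the H3K27me3 mark that this complex writes, the transcription factor N-MYC, the acetyltransferase p300, and the active marks H3K27ac and H3K4me3. The labels give neither age nor sex, nor how MYCN was expressed, nor which animal each library came from. The 2 input libraries carried no list and were not used here.

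p53 is a transcription factor that halts the cell cycle or starts cell death after DNA damage and oncogene stress. MDM2 is a ubiquitin ligase that marks p53 for destruction, and MDM4 binds and holds back its transactivation domain. ATM is the kinase that senses double-strand breaks, CHK2 is a kinase that it activates, and both phosphorylate p53. FBXW7 is the substrate receptor of an SCF ubiquitin ligase that degrades MYC proteins, NOTCH1 and cyclin E. Loss of p53, ATM or FBXW7 is a known route to T-cell lymphoma or leukaemia. p63 and p73 are paralogues of p53 that act mainly in epithelial and neural development and are made from alternative promoters.

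A gene was called in a list when a peak overlapped by at least 1 bp the window of 1 kb on either side of a start. Fold enrichment is the authors' linear ratio over background at a peak, and the strongest peak in the window is given. Starts came from a RefSeq promoter table that gave 11 starts for 7 of the 8 genes. Trp63 had no entry there and was read at both ends of the gene. A percentile places a gene's fold enrichment among all protein-coding genes called in the same list. There were no replicates, so no value has an error, no difference was tested and no p-value is given. A missing peak means that no call passed the authors' threshold.

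The promoter windows of 5 members are shown first, because the calls described next fall on them. Each runs from 250 bases before to 50 bases after the start, 5′ to 3′ on the gene's strand, from RefSeq GRCm38.p6. Capitals mark CACGTG, the canonical E-box bound by MYC proteins with MAX, and CACGCG or its reverse complement CGCGTG, a variant E-box. Neither motif overlaps the other in these windows. The windows are Trp53 at chr11:69580109-69580408 on the plus strand, Atm at chr9:53536622-53536921, Mdm2 at chr10:117710709-117711008 and the upstream Trp73 start at chr4:154139826-154140125 on the minus strand, and Chek2 at chr5:110839733-110840032 on the plus strand.
Trp53: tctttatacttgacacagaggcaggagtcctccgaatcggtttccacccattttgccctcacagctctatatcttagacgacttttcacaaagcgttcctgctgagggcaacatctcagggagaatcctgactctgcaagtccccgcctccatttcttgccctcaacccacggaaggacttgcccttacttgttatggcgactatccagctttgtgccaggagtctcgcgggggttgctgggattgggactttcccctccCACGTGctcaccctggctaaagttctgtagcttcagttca
Atm: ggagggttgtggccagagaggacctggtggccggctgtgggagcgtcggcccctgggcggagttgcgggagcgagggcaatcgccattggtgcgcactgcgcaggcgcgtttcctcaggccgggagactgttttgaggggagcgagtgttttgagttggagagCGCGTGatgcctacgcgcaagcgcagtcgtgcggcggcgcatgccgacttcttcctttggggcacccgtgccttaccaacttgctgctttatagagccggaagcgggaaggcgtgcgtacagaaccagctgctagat
Mdm2: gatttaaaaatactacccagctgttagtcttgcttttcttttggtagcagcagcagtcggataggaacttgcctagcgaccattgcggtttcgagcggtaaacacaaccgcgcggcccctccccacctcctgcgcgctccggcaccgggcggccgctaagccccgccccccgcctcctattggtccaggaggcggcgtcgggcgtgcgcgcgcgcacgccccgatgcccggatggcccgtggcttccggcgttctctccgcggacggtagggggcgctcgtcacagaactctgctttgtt
Chek2: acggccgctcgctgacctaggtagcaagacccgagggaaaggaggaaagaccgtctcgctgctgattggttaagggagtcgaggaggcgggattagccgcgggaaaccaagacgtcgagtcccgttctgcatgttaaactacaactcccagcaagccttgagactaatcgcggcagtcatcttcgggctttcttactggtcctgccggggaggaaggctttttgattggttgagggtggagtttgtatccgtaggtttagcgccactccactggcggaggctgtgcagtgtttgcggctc
Trp73: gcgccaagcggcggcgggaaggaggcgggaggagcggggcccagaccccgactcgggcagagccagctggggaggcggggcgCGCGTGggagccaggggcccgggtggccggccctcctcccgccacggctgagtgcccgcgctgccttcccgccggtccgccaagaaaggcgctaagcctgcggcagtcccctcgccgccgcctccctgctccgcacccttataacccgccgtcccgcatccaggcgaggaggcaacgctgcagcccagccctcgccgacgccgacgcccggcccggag

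Trp53 was the only member with the canonical E-box CACGTG in a promoter window, 10 bp after its start, at chr11:69580369-69580374. That site lay inside an N-MYC peak, 38 bp from its summit. Atm had the variant CGCGTG, first base at -87 bp from the start, also inside an N-MYC peak and 29 bp from its summit. The Trp73 window held CGCGTG at -168 bp from the start, where no N-MYC peak was called. Mdm2 and Chek2 had neither motif in their windows, and N-MYC was called at Mdm2 but not at Chek2. The windows of Mdm4 and Fbxw7 had neither motif either, but no N-MYC peak overlapped them. The nearest N-MYC peaks began 53 bp past the downstream Mdm4 start and 61 bp past the upstream Fbxw7 start. The sequence under the N-MYC peaks of these 2 genes was not searched. Among 21263 promoter windows of protein-coding genes, searched on both strands, CACGTG was found in 7.84% and CACGCG or CGCGTG in 12.1%. The shares were 13.8% and 25.4% in the 6297 windows that an N-MYC peak overlapped, and 6.73% and 11.1% in the 4206 windows with H3K4me3 and no N-MYC peak. Windows under N-MYC peaks were also richer in CpG, with a median of 25 CpG dinucleotides against 17. A match is a string of letters and does not show binding, and no match says only that these letters are not in this window.

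The windows differed in base composition. The upstream Trp73 window was the most CpG-dense of the 11 member windows, with 39 CpG and 77.7% GC (percentile 94.9 for CpG among all windows). Mdm2 had 35 CpG, Atm 28, Fbxw7 24 at its upstream start and Chek2 21. Trp53 had 10 CpG (percentile 45.3) and 52.7% GC, and the called start of Mdm4 had 9 (percentile 43.2). The median over all windows was 13.

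The members fell into 4 patterns. At Trp53, Mdm2, Mdm4, Atm and Fbxw7 a start was called for H3K4me3, H3K27ac, p300, N-MYC and EZH2, and for neither SUZ12 nor H3K27me3, a combination present at 25.4% of the 17492 protein-coding genes with a listed start. Chek2 carried the same lists except N-MYC, as did 5.37% of genes. Trp73 carried EZH2, SUZ12 and H3K27me3 and none of the 4 active lists, a pattern of 6.83% of genes. Trp63 had no peak near either end in the 7 lists, which held for 26.6% of all genes read at both ends.

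**Figure D1:**
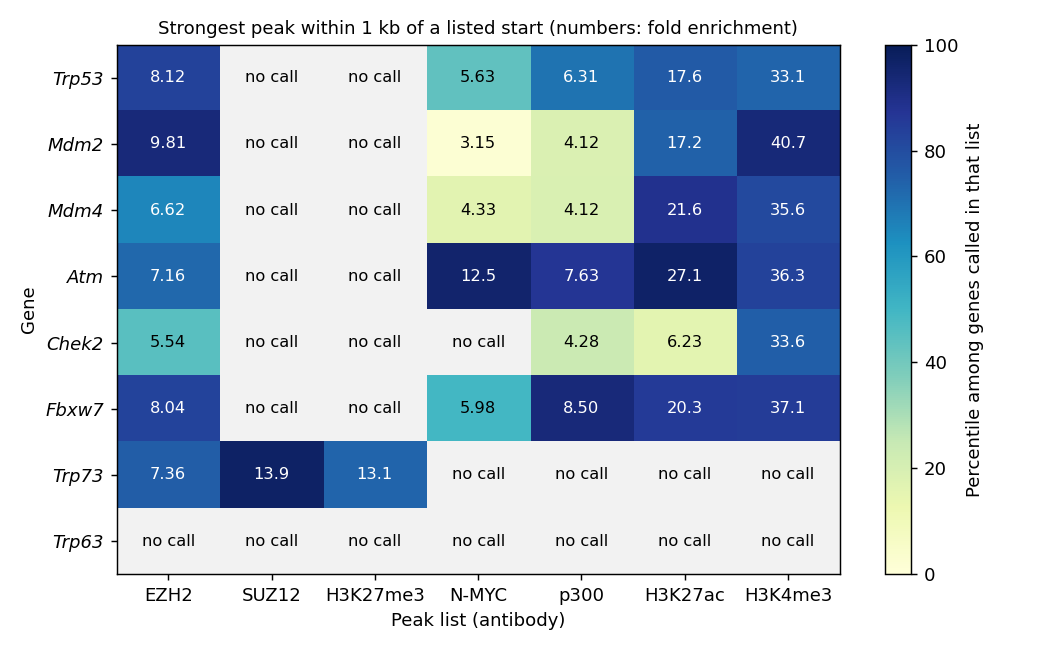
Fold enrichment (numbers) of the strongest peak within 1 kb of a listed start for each gene (rows; Trp63 at both gene ends) in each peak list (columns). Colour gives the percentile among all protein-coding genes called in that list, and grey cells have no call. The upper 6 genes share EZH2, p300, H3K27ac and H3K4me3, and SUZ12 and H3K27me3 were called at Trp73 alone.

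By list, EZH2 was called at 7 of the 8 members, against 46.0% of all genes with a listed start. N-MYC was called at 5 (34.0% of all genes), and p300 (40.6%), H3K27ac (52.2%) and H3K4me3 (52.1%) at 6 each. SUZ12 was called at 1 member (12.8%) and H3K27me3 at 1 (24.3%). Fold enrichment at the called members had a median of 7.36 for EZH2, against 5.83 over all called genes. For H3K4me3 the medians were 35.9 and 26.6, and for H3K27ac they were 19.0 and 12.4. For N-MYC (5.63 and 6.01) and p300 (5.29 and 5.40) the medians lay close together. Active promoters of many kinds share these lists, so the counts describe the members and set nothing apart as particular to them.

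**Figure D2:**
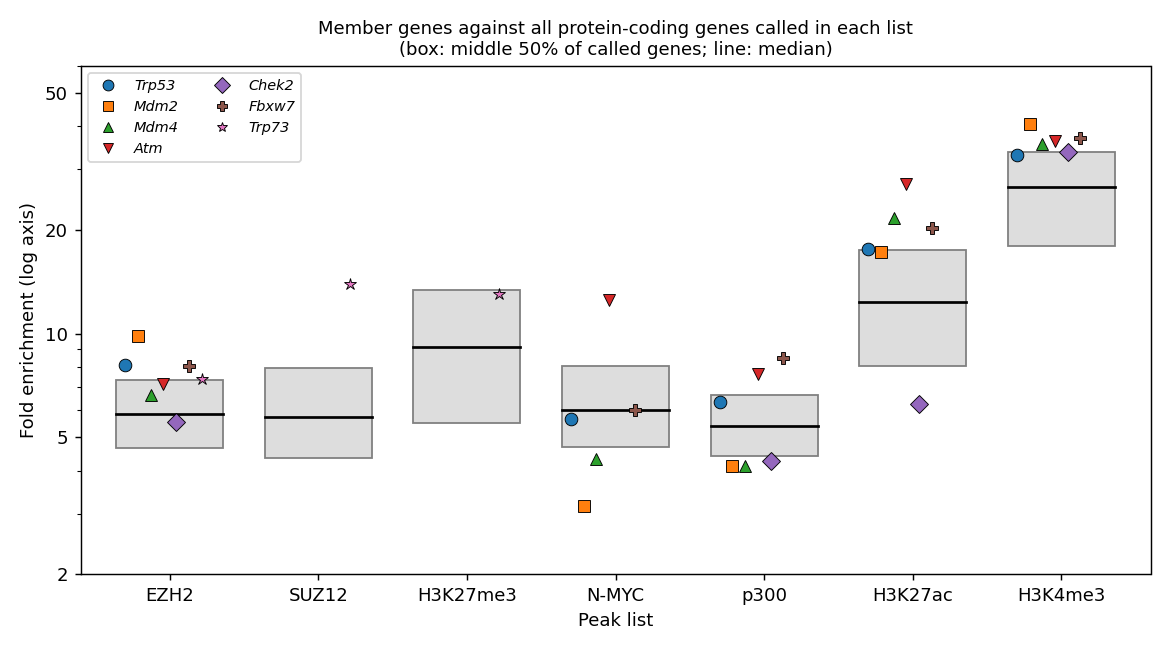
Fold enrichment on a log axis of the called members (symbols) in each peak list, against all protein-coding genes called in that list (box, middle 50%; line, median). The H3K4me3 values of the 6 called members, from 33.1 to 40.7, lie above the median of 26.6, while their N-MYC values run from 3.15 at Mdm2 to 12.5 at Atm.

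Trp53 lies on chromosome 11 from 69580348 to 69591873. Its start carried EZH2 with a fold enrichment of 8.12 (percentile 83.0), N-MYC with 5.63 (43.6), p300 with 6.31 (69.7), H3K27ac with 17.6 (75.8) and H3K4me3 with 33.1 (73.1). All these values but that of N-MYC were above the median of called genes. The H3K4me3 peak was 5.95 kb wide, at percentile 99.1 of all widths in its list, and the p300 peak of 3.05 kb was at percentile 98.7. EZH2 formed a pair of peaks under this domain, and the further one, upstream of the gene from 69578681 to 69579783, had a fold enrichment of 7.17. N-MYC also had a pair of narrow peaks, at the start and from 1.02 kb into the gene, where fold enrichment was 4.99. H3K27ac covered 80.4% of the 11.5 kb gene body in 8 peaks, against 4.90% of all gene bodies pooled. Pooled shares count bases over all genes, long ones and those without a peak included, and were not matched for gene length or activity. Wrap53, which encodes a telomerase and Cajal body protein, starts on the opposite strand 109 bp from the Trp53 start, so peaks here cannot be assigned to either gene.

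Mdm2 (chromosome 10, 117688875 to 117710758) had the highest EZH2 and H3K4me3 values of the members. Fold enrichment was 9.81 for EZH2 (percentile 92.9) and 40.7 for H3K4me3 (93.0), with 17.2 for H3K27ac (74.0). Its N-MYC and p300 values stood at the other end of their lists. N-MYC was 3.15, at percentile 1.90 of called genes, in a peak of 215 bp, and p300 was 4.12, at percentile 18.5. The N-MYC call had a −log10 q of 4.13 and was lost at a q-value of at most 1e-05 and at a fold enrichment of at least 4. All 5 peaks lay at the single listed start. Their reach into the gene differed, to 46 bp past the start for N-MYC, 821 bp for EZH2, 1257 bp for H3K27ac and 2149 bp for H3K4me3. No further peak of the 7 lists was called in the 21.9 kb gene body.

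Mdm4 (chromosome 1, 132986105 to 133030587) had 2 listed starts with different calls. The downstream start carried EZH2 with 6.62 (percentile 65.0), N-MYC with 4.33 (16.3), p300 with 4.12 (18.8), H3K27ac with 21.6 (88.6) and H3K4me3 with 35.6 (81.0). The outermost start, 5.03 kb from the nearest EZH2 peak, had H3K27ac alone, with a fold enrichment of 5.53. Reading Mdm4 at that outermost position only, as an alternative, ended 4 of its calls. Mdm2 and Mdm4, paralogous p53 antagonists, both combined H3K4me3 percentiles of 93.0 and 81.0 with N-MYC and p300 percentiles from 1.90 to 18.8. The pseudogene Gm29257 lies 408 bp from the downstream start.

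Atm (chromosome 9, 53437122 to 53536828) had the highest N-MYC and H3K27ac values among the members. N-MYC fold enrichment was 12.5 (percentile 95.5), H3K27ac 27.1 (96.6), p300 7.63 (87.0), H3K4me3 36.3 (83.1) and EZH2 7.16 (72.5). The N-MYC value at Atm was above those of the other 4 called members, which ran from 3.15 to 5.98. Relative to the start, with negative values upstream, the EZH2 peak lay from -1197 to -358 bp, outside the gene, and the N-MYC summit at -55 bp. Npat, a regulator of histone gene transcription, starts on the opposite strand 376 bp away, so this promoter too is shared by a divergent pair of genes. EZH2, H3K27ac and H3K4me3 summits stood at -699, -671 and -663 bp from the Atm start, on the Npat side.

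Chek2 (chromosome 5, 110839800 to 110874140) was the member with an active start and no N-MYC call. Fold enrichment was 33.6 for H3K4me3 (percentile 74.7), 5.54 for EZH2 (44.9), 4.28 for p300 (23.6) and 6.23 for H3K27ac (15.8). The H3K4me3 value was close to that of Trp53, whereas H3K27ac was the lowest of the 6 active members, which otherwise ran from 17.2 to 27.1. The nearest N-MYC peak was 29.6 kb from the start. The H3K27ac peak was 5.49 kb wide, and it extended from the start into Hscb, an iron-sulfur cluster chaperone gene with 6 bases between its annotated interval and that of Chek2, so these peaks cannot be assigned to either gene. With each list limited to the 9798 peaks of lowest q-value, the length of the shortest list, the H3K27ac call at Chek2 was lost.

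Fbxw7 (chromosome 3, 84814990 to 84979198) had 3 listed starts, and all calls fell on the upstream one. There EZH2 was 8.04 (percentile 82.5), N-MYC 5.98 (49.6), p300 8.50 (92.7), H3K27ac 20.3 (85.3) and H3K4me3 37.1 (85.1). The p300 value rests on a peak centred outside the window: with the summit or 50% of the shorter interval required in the window it was 4.03, below the other 5 called members, which ran from 4.12 to 7.63. The 2 internal starts, which lie in windows with 1 and 6 CpG, carried no peak of the 7 lists. The strongest N-MYC and p300 summits lay at -1202 and -1124 bp from the start, and a second, weaker pair lay at the start itself with fold enrichments of 4.25 and 4.03. The H3K27ac summit was at -1578 bp, so requiring the summit within 1 kb ended that call. Gm35486, a long non-coding RNA gene on the opposite strand, starts 1144 bp upstream.

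**Figure D3:**
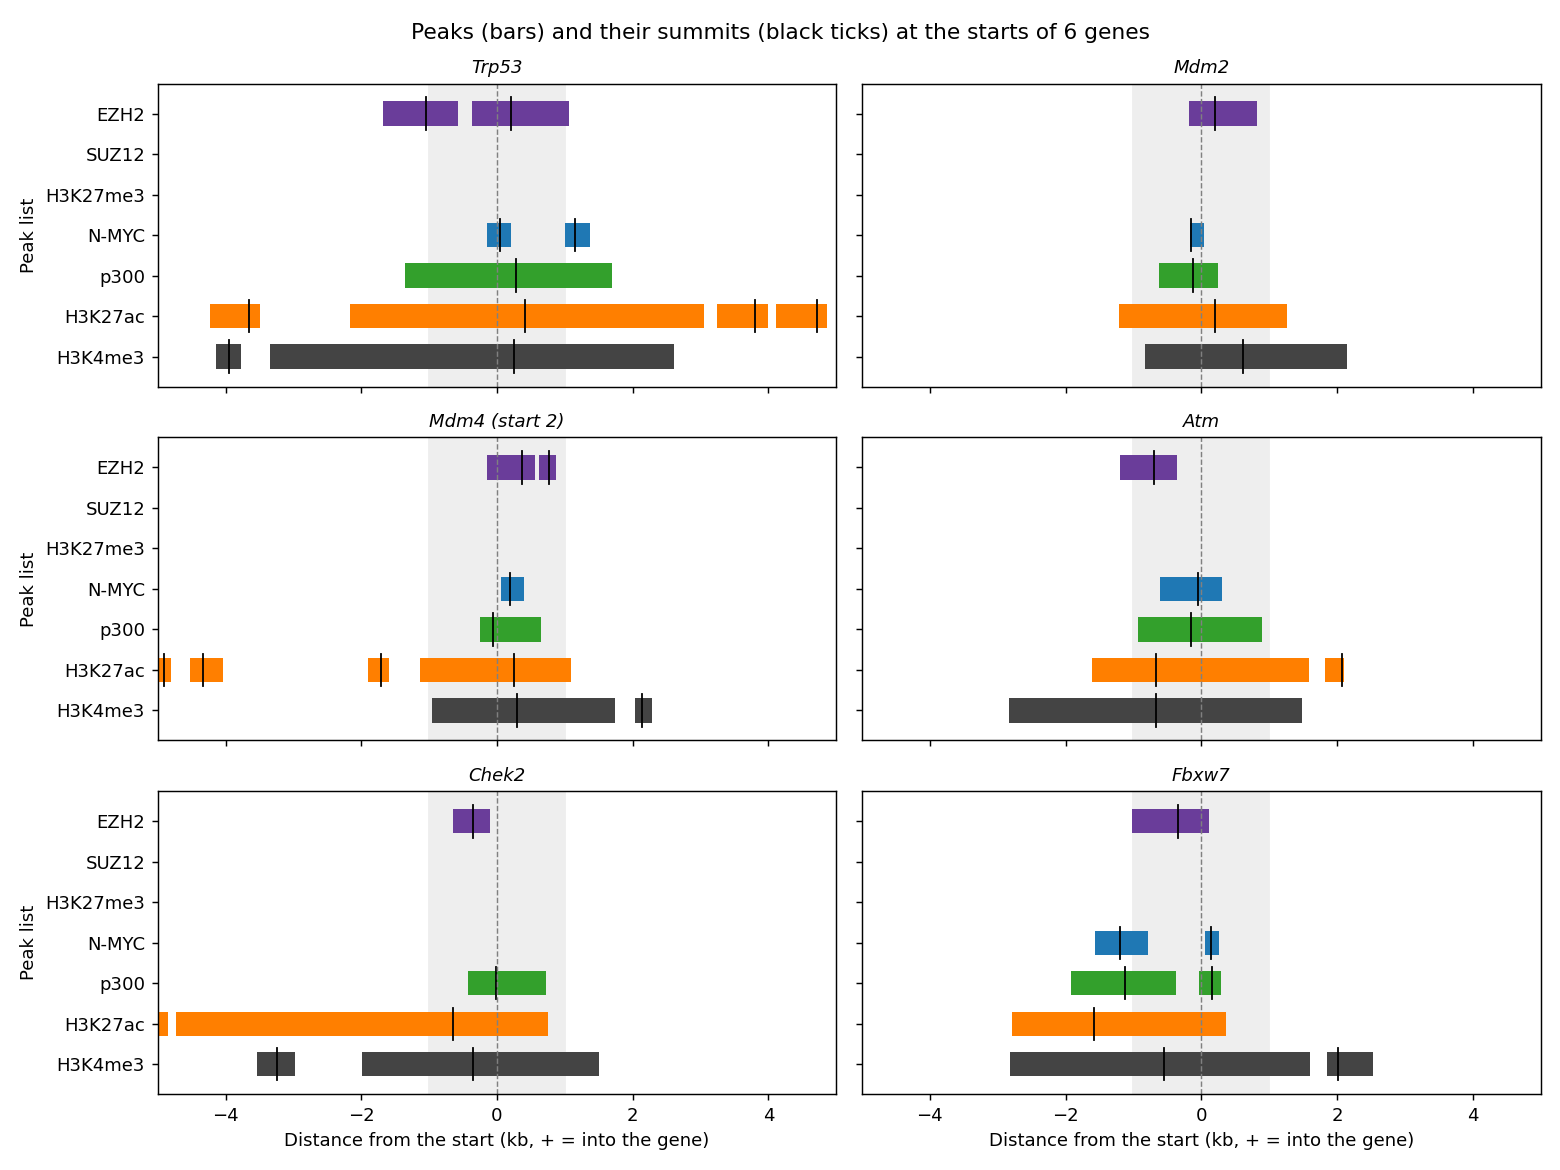
Peaks (bars) and summits (black ticks) of the 7 lists by distance in kb from the start (dashed line; positive into the gene) at the 6 genes with H3K4me3, within 5 kb; grey marks the 1 kb window on each side. EZH2 peaks sit inside the H3K4me3 peak at each of the 6 genes and the SUZ12 and H3K27me3 rows are empty.

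At the 6 active members the EZH2 peak overlapped the H3K4me3 peak in 6 of 6 cases and the N-MYC peak in 5 of the 5 with N-MYC. The distance between the EZH2 and H3K4me3 summits had a median of 54.5 bp and ran from 3 to 417 bp. EZH2 and N-MYC summits lay farther apart, with a median of 351 bp and a range from 155 to 854 bp. N-MYC and p300 summits were 24 to 250 bp apart. The H3K4me3 peaks were wide, from 2699 to 5949 bp, against a median of 1655 bp in the list. Over the bodies of these 6 genes, 6 EZH2 peaks were called and 0 of them lay outside the start windows. For H3K27ac, 10 of 18 body peaks lay outside them. SUZ12 and H3K27me3 had 0 peaks over any of the 6 bodies.

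Trp73 lies on chromosome 4 from 154056249 to 154139875 and has 2 listed starts, 1 at the outer edge and 1 inside the gene. The upstream start carried SUZ12 with a fold enrichment of 13.9, at percentile 97.0 of called genes. EZH2 was 7.36 (percentile 75.2) and H3K27me3 13.1 (73.4). These peaks were broad, with widths of 5.62 kb for SUZ12, 4.83 kb for EZH2 and 12.8 kb for H3K27me3. The H3K27me3 peak was at percentile 99.5 of widths in its list. The internal start had H3K27me3 alone, in a peak of 294 bp with a fold enrichment of 3.50.

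H3K27me3 went on through the Trp73 gene. It was called in 34 peaks that covered 38.9% of the 83.6 kb body, against 5.19% of all gene bodies pooled. A total of 32 of these peaks lay outside both start windows, and the whole body kept 19 peaks at a q-value of at most 1e-05, 14 at a fold enrichment of at least 4 and 4 with lists of equal length. EZH2 and SUZ12 stayed near the upstream start, with 3 and 2 body peaks. N-MYC and p300 had 0 peaks over the gene, and H3K27ac had 3, with fold enrichments from 3.03 to 3.67. H3K4me3 (24.5) and H3K27ac (9.03) peaks began 2.22 and 2.47 kb upstream of the Trp73 start, outside the window of 1 kb and inside that of 5 kb. The H3K4me3 peak spans the start of Wrap73, a gene of the opposite strand that starts 2.50 kb away. The outer edges of the EZH2, SUZ12 and H3K27me3 peaks, at -2885, -2910 and -2514 bp from the Trp73 start, reached into that H3K4me3 peak.

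Trp63, on chromosome 16 from 25683763 to 25892088, had no call at either end, and its strand and internal starts were not used here. Over its 208.3 kb, H3K27me3 was called in 27 narrow peaks with fold enrichments from 2.77 to 5.95 (median 4.14). They began 77.3 kb and ended 197.5 kb from the lower-coordinate end and covered 4.12% of the body, near the pooled 5.19%. Of these peaks, 14 passed a q-value of at most 1e-05, 15 had a fold enrichment of at least 4 and 0 were left with lists of equal length. A single H3K27ac peak (3.31) lay 53.9 kb from the lower end. The nearest EZH2 and SUZ12 peaks were 212.27 and 211.74 kb beyond the upper end of the gene.

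**Figure D4:**
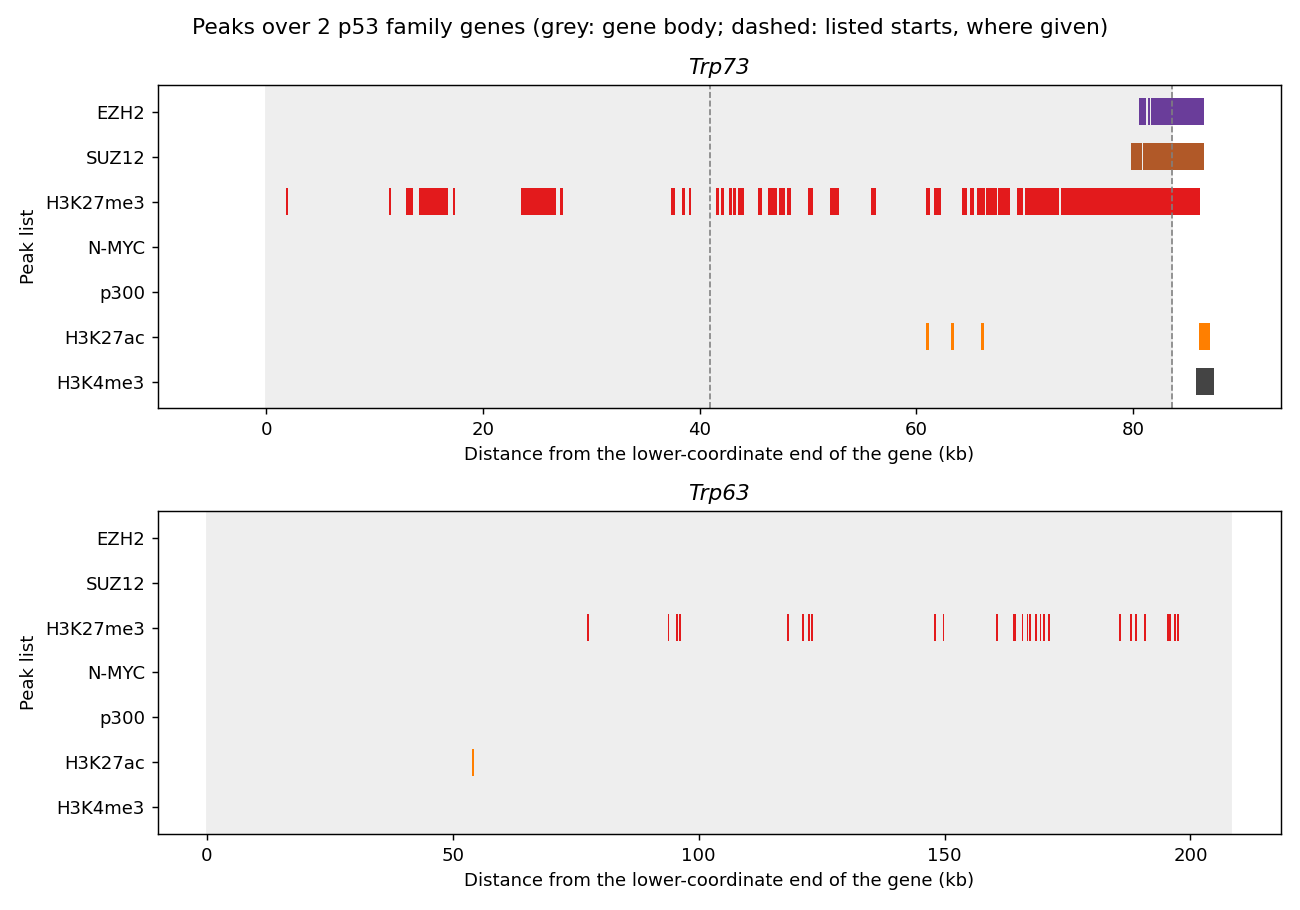
Peaks of the 7 lists over Trp73 and Trp63 by distance in kb from the lower-coordinate gene end (grey, gene body; dashed, listed starts of Trp73; the narrowest bars are drawn at a minimum width). At Trp73 broad EZH2, SUZ12 and H3K27me3 peaks cover the upstream start at the right, and at Trp63 the 27 H3K27me3 peaks are narrow and scattered.

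A peak of each list over the body was found at 6 members for EZH2 (47.1% of all genes), 5 for N-MYC (35.3%), 6 for p300 (42.0%), 8 for H3K27ac (57.9%), 6 for H3K4me3 (54.0%), 1 for SUZ12 (14.9%) and 2 for H3K27me3 (30.2%). Long genes have more room for a peak, and the members run from 11.5 to 208.3 kb.

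The wider pathway was read in 5 lists with 90 genes in all, of which 16 had no listed start and were read at both gene ends. Calls were pooled over all starts or ends of a gene, so calls in different lists may lie at different positions. Over the 90 genes, EZH2 was called at 90.0% (46.0% of all genes with a listed start), N-MYC at 71.1% (34.0%), p300 at 83.3% (40.6%), H3K27ac at 92.2% (52.2%) and H3K4me3 at 96.7% (52.1%). SUZ12 was called at 15.6%, near the 12.8% of all genes, and H3K27me3 at 17.8%, below their 24.3%. Among the 74 with a listed start the first share was 89.2% and the N-MYC share 71.6%. The pattern of Trp53, the 5 lists without SUZ12 or H3K27me3, was present at 57 of the 90 genes (63.3%), against 25.4% of all genes.

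Among 20 p53 response targets, EZH2 was called at 17, H3K4me3 at 19, H3K27ac at 18, p300 at 12 and N-MYC at 11. The 3 strongest N-MYC values were at the cell death genes Bbc3 (9.73) and Bax (9.19), which encode PUMA and BAX, and at the ribonucleotide reductase subunit gene Rrm2b (8.91). Rrm2b had no listed start and was read at both gene ends. H3K27me3 was called at 4 targets: Cdkn1a (12.6), which encodes the cell cycle inhibitor p21, Phlda3 (14.3), an inhibitor of AKT, the kinase gene Plk2 (13.4) and the death receptor gene Tnfrsf10b (4.37). The first 3 of these also had SUZ12 (5.85, 5.71 and 4.86) and EZH2, and all 4 had H3K4me3, between 4.78 and 11.4, and no N-MYC or p300. H3K27ac was called at Cdkn1a (8.72), Plk2 (5.14) and Tnfrsf10b (2.71), the last read at both gene ends. Eda2r, a death receptor gene on the X chromosome, had no peak in the 7 lists.

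The 18 DNA damage signalling genes all had p300, H3K27ac and H3K4me3, and 0 had SUZ12 or H3K27me3. Of all genes with a listed start, 40.6% had p300, 52.2% H3K27ac and 52.1% H3K4me3, with 12.8% for SUZ12 and 24.3% for H3K27me3. EZH2 was called at 15 of the 18 genes (46.0% of all genes) and N-MYC at 14 (34.0%). N-MYC was highest at Mdc1 (12.5), a mediator that binds phosphorylated H2AX, Rad17 (11.6), a checkpoint clamp loader, and Nbn (9.60). Nbn, which encodes a subunit of the break-sensing MRN complex, had no listed start and was read at both gene ends. Wrap53 is among these 18 and holds the same peaks as Trp53. With 1 start per gene, SUZ12 and H3K27me3 were each called at 1 of them. Their median H3K4me3 fold enrichment was 35.0. Atr, the kinase related to ATM, had an N-MYC value of 4.05, against 12.5 at Atm.

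Of 18 regulators of p53 and MDM2, 15 had N-MYC, against 34.0% of all genes with a listed start. The highest were Trim28 (12.9), a corepressor, and Rpl11 (10.1) and Rpl5 (9.33), ribosomal proteins that bind MDM2. SUZ12 and H3K27me3 were called together at 3, which were Cdkn2a (11.0 and 23.6), the locus of ARF, Hipk2 (5.71 and 20.3), a kinase of p53, and Ppp1r13l (3.99 and 7.31), the inhibitory ASPP protein iASPP. Each of these 2 lists was called at 16.7% of the 18 genes, against 12.8% and 24.3% of all genes. All 18 had H3K4me3, against 52.1% of all genes. Cdkn2a was called in all 7 lists, with N-MYC 6.41, p300 3.66 and H3K27ac 3.49. Hipk2 also had N-MYC (2.81) and H3K27ac (9.88), and Ppp1r13l had p300 (5.77).

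Among 13 genes of the SCF-FBXW7 complex and its substrates, N-MYC was called at 9 and was highest at Ccne1 (11.4), the cyclin E1 gene, Cul1 (7.95), the cullin scaffold, and Gsk3b (7.62), the kinase that primes many substrates. Of all genes with a listed start, 34.0% had N-MYC. SUZ12 and H3K27me3 were each called at 4 of the 13 genes (30.8%), against 12.8% and 24.3% of all genes. With the summit in the window, SUZ12 was called at 2 of the 13 and H3K27me3 at 3. The substrate genes Myc (11.4 and 8.23), Mycn (6.93 and 21.3), Jun (8.30 and 15.7) and Klf5 (5.10 and 17.8) carried SUZ12 and H3K27me3. N-MYC was called at none of these 4. Myc and Klf5 had no listed start and were read at both gene ends, so their peaks may lie at either end. H3K4me3 was also called at Myc (11.1), Jun (13.4) and Klf5 (6.75). Jun had H3K27ac (17.3) and p300 (6.02) as well, and Myc had H3K27ac (3.63). Mycn had no H3K4me3 peak. The substrate gene Notch1 had the active pattern with low values, N-MYC 4.01 and EZH2 3.60.

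In 21 other lymphoid tumour suppressor genes, EZH2 was called at 20 (46.0% of all genes with a listed start) and N-MYC at 15 (34.0%). N-MYC values were 14.3 at the chromatin remodelling gene Arid1a and 8.67 at Socs1, an inhibitor of JAK signalling. H3K27me3 was called at 5: Prdm1 (18.5), Lef1 (9.40), Cdkn2b (7.34), Nf1 (6.36) and Bcl11b (3.58). The first 4 also had SUZ12. The H3K27me3 share of 23.8% was near the 24.3% of all genes, and the SUZ12 share was 19.0%, against 12.8%. H3K4me3 was also called at Lef1 (39.4), Cdkn2b (5.96), Nf1 (29.2) and Bcl11b (41.8). Lef1 and Bcl11b had N-MYC (8.26 and 5.14), p300 and H3K27ac as well. Nf1 had H3K27ac (12.4) without N-MYC or p300, and Cdkn2b had no N-MYC, p300 or H3K27ac. Prdm1, a differentiation factor of lymphocytes, had EZH2, SUZ12 and H3K27me3 and no active list, as Trp73 did.

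**Figure D5:**
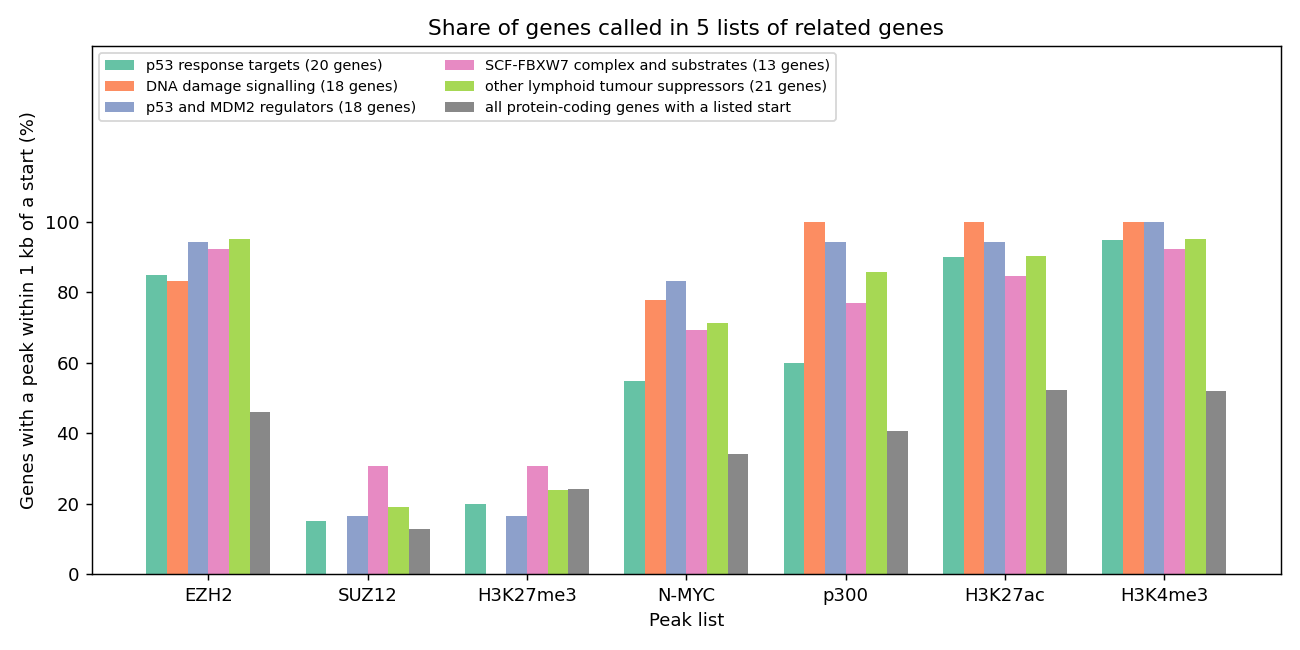
Percentage of genes with a peak within 1 kb of a start in each of 5 gene lists (coloured bars) and among all protein-coding genes with a listed start (grey), for each peak list. The shares of the 5 gene lists are above the grey bar for EZH2, N-MYC, p300, H3K27ac and H3K4me3, and the DNA damage genes have no bar for SUZ12 or H3K27me3.

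Likeness to each member was measured as the Euclidean distance of log2 fold enrichment over the 7 lists, with a missing call set to 1. The nearest of the 90 genes to Trp53 was Wrap53 at distance 0, since both windows hold the same strongest peaks, and then Ppm1d, a phosphatase gene, at 0.38. Rad17 (0.42) and Brca2 (0.62) were nearest to Atm, and Gsk3b (0.45) and Wrap53 (0.51) to Fbxw7. For Mdm2 they were Btg2 (0.72) and Atr (0.74), and for Mdm4 Dnmt3a (0.51) and Gadd45a (0.64). For Chek2 they were Sesn2 (0.48) and Pml (1.22). Neither had an N-MYC call, which the measure itself favours, since N-MYC is among the 7 lists and a missing call enters as 1. The nearest genes to Trp73 were Prdm1 (1.01) and Mycn (1.23).

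Over the whole series the 7 lists held 282301 peaks, from 9798 for N-MYC to 123056 for H3K27me3, and read depth is unknown. The T-cell identity of the chromatin was checked at marker genes: 10 of 12 T-cell markers had H3K27ac and H3K4me3, and Cd8a and Cd8b1 had neither. H3K4me3 was called at 1 of 5 B-cell, 1 of 5 myeloid, 1 of 5 thymic epithelial, 0 of 5 fibroblast, 0 of 4 endothelial and 4 of 4 erythroid markers. H3K27ac was called at the 4 erythroid markers as well. The part of other cells in the calls at the members was not tested.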

How the data were processed

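One peak list per antibody was used, as deposited by the authors. The submitters' processing notes name Bowtie2, SAMtools, MACS2, deepTools and FastQC and the builds mm10 and GRCm38, with no versions or settings. Use of the inputs as controls and pooling of libraries are not given in the sources used here. In the deposited lists, fold enrichment is given as a ratio on a linear scale, and p-values and q-values as −log10 values; the smallest −log10 q was 2.00 to 2.08 over the lists. A deposited whole-number score entered no result. Columns were identified from the file layout and values.

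Starts and gene intervals came from RefSeq GRCm38.p6. The promoter table gave a start for 17492 genes, and 4395 protein-coding genes without one were read at both ends. Of 16453 H3K4me3 peaks on the 20 chromosomes with listed starts, 53.0% reached a start within 1 kb, against 6.58% with the starts moved by 100 kb. Exon positions were not used here. Coordinates count from 1. Overlaps were computed with pandas 2.3.3 and numpy 2.4.6 in Python 3.11.15 and figures with matplotlib 3.10.9. On simulated data, 100 of 100 genes with a planted peak inside the window were recovered and 0 of 100 with a peak outside it were called.

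The named genes were all members, pathway genes with SUZ12 or H3K27me3 or without H3K4me3, the 3 of highest N-MYC fold enrichment per list, the 2 nearest genes to each called member, and genes with a start within 1 kb of a member's. Wrap73, Gm35486 and Notch1, and Hscb and Gm29257, which were matched by a gene end and not a start, fall outside this rule and were chosen after their values were seen. A gene that the rule names is not reported here. Members and lists were chosen with earlier results of these data known. With 1 library per antibody no test was possible.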

Additional observations from a re-analysis of the deposited data

How the results depend on the processing

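Alternatives were other windows (500 bp, 2 kb and 5 kb), stricter thresholds, lists of equal length, other overlap rules and 1 start per gene. The use of curated transcripts was not run because the promoter table lists no transcripts, and leaving out the pathway genes read at both ends was chosen after seeing the data. Of 231 alternative values of the counts over members, over the 90 pathway genes and over all genes, 226 stayed within 1.5 times the reported one. Of 512 further values, for single genes and each gene list, 494 stayed close and 18 moved. With the summit in the window, SUZ12 was called at 2 instead of 4 SCF-FBXW7 genes and H3K27me3 at 3 instead of 5 other lymphoid suppressors. Counts and fold enrichments cannot change sign, so the 743 values could show no reversal. The 18 include the H3K27me3 peaks over Trp63, which fell from 27 to 0 with lists of equal length. A fold enrichment whose call was lost is not among the 512. Fold enrichments at the members were also not compared under the stricter thresholds or with lists of equal length. Of the 32 calls at the members' starts, 25 were kept under all alternatives and 7 were lost under at least 1. With lists of equal length, H3K27me3 was called at 2765 genes instead of 4244 and over the body of 1 member instead of 2, and H3K27ac over the bodies of 5 members instead of 8. At a q-value of at most 1e-05, N-MYC was called over 3 bodies instead of 5. With an overlap of 50%, H3K4me3 was called over 3 bodies instead of 6. The stricter lists hold fewer peaks by construction. The only H3K4me3 body peak ran from -3345 to 2603 bp of the start at Trp53 and from -2836 to 1483 bp at Atm. At Chek2 it ran from -1995 to 1500 bp. The larger part of each lay upstream, and the effect of this on the H3K4me3 count was not tested. With a window of 5 kb, Trp73 gained H3K27ac (9.03) and H3K4me3 (24.5). Under a window of 500 bp, or with the summit or 50% of the shorter interval in the window, the N-MYC value at Fbxw7 was 4.25, and under the last 2 of these its p300 value was 4.03 instead of 8.50. No paired analysis was possible because each antibody had 1 library. The unknown depth limits every missing call.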
